A study of Mesocricetus auratus with 21 samples.

Results

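In hamster testes, 200 genes had their highest RNA level at 13 days post partum (dpp) in Mov10l1+/+ animals, out of 22285 genes measured. These genes (called members here) were chosen from the Mov10l1+/+ libraries. CPM is a gene's count per 1000000 counts of its library. A gene was kept when its lower CPM at 13 dpp was at least 10, which 7911 genes met, and ranked by the log2 ratio of that value to the highest CPM among the 9 other Mov10l1+/+ libraries, with 1 added to both. This ratio was above 0 for 275 genes, and the 200 with the highest ratio were taken. Sohlh1, Sall4 and Zbtb16, which the rule leaves out, had ratios of -0.85, -1.79 and -0.47 and would not have been chosen. The age profile of Mov10l1+/+ testes is therefore fixed by the choice and is described without a test, while the Mov10l1-/- libraries took no part in it.

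Whole testes of golden hamsters (Mesocricetus auratus) were sampled at 0, 9, 13 and 21 dpp and in adults, in wild-type (Mov10l1+/+, 11 libraries) and knockout (Mov10l1-/-, 10 libraries) animals, with 2 libraries per group and 3 for Mov10l1+/+ at 9 dpp. The knockout allele lacks exon 20 of Mov10l1 after CRISPR/Cas9 electroporation in vivo, descends from 1 founder female, and was bred to outbred wild-type animals before heterozygotes were mated. Adults were 65 and 23 weeks old in the Mov10l1+/+ group and 63 and 53 weeks old in the Mov10l1-/- group. Sample titles carry a code before the animal number, which is read here as the litter, though the labels do not say so. By the titles both Mov10l1-/- libraries at 9 dpp came from 1 animal and both at 0 dpp from 1 litter. Each litter at 13 dpp, so read, gave 1 animal of each genotype. RNA of 0 and 9 dpp was read as 75 nt single ends and that of the other ages as 150 nt pairs, so age and read type cannot be told apart between 13 dpp and the 2 younger ages.

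MOV10L1 is an RNA helicase needed to make PIWI-interacting RNAs, the small RNAs that silence transposons in germ cells. In the days after birth germ cells of the rodent testis resume division, become spermatogonia and enter meiosis, while Sertoli cells, the somatic cells that nurse them, stop dividing and mature. Whole testis RNA mixes all these cells, so fewer cells of a type and less RNA per cell cannot be told apart.

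Library totals ran from 3550217 to 77527451 counts, and the lowest total belonged to Mov10l1+/+ replicate 2 at 13 dpp, where the members had between 40 and 62896.5 counts with a median of 178.5. Mov10l1 RNA was 56.4 and 110.1 CPM in the Mov10l1+/+ testes at 13 dpp and 1.54 and 0.174 CPM in the Mov10l1-/- testes, and it was lower in each Mov10l1-/- library than in any Mov10l1+/+ library. The 12 germ cell genes with an identifier summed to between 478 and 560 CPM in Mov10l1+/+ testes at 13 dpp and to between 49.4 and 94.4 CPM in Mov10l1-/- testes. In adults these sums were 2938 to 3386 CPM and 93.7 to 96.0 CPM. The 7 Sertoli cell genes with an identifier summed to between 2939 and 3726 CPM in Mov10l1+/+ testes and to between 4101 and 4741 CPM in Mov10l1-/- testes at 13 dpp, and in adults to between 704 and 860 CPM and to between 5555 and 6164 CPM. These identifiers came from the study's lists of genes that changed in the knockout and cover 12 of 17 germ cell genes and 7 of 25 Sertoli cell genes listed, so the sums rest on genes partly picked for a difference between genotypes. The part of these differences in the results that follow was not tested.

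In most members the lower 13 dpp library stood only slightly above the highest library of another age in Mov10l1+/+ testes. The log2 ratio that ranked them had a median of 0.22 and ran from 0.06 to 0.98. It was above 0.5, a ratio of 1.41-fold, in 18 members and below 0.2 in 89. The highest library of another age was from 9 dpp for 96 members, from 21 dpp for 82, from 0 dpp for 20 and from adults for 2, and Mov10l1+/+ replicate 1 at 21 dpp alone set it for 76. At the limit, Rasl12, a small GTPase of the Ras-like family, was the last but 1 taken with a ratio of 0.0620, followed by ENSMAUG00000012943 with 0.0612, and the next genes, ENSMAUG00000013795 and ENSMAUG00000020818, had 0.0610 and 0.0607. The median over members of the group mean was 19.09, 28.1, 46.6, 24.6 and 7.79 CPM in Mov10l1+/+ testes at 0, 9, 13 and 21 dpp and in adults, and 17.7, 30.8, 41.1, 30.8 and 31.2 CPM in Mov10l1-/- testes.

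**Figure D1:**
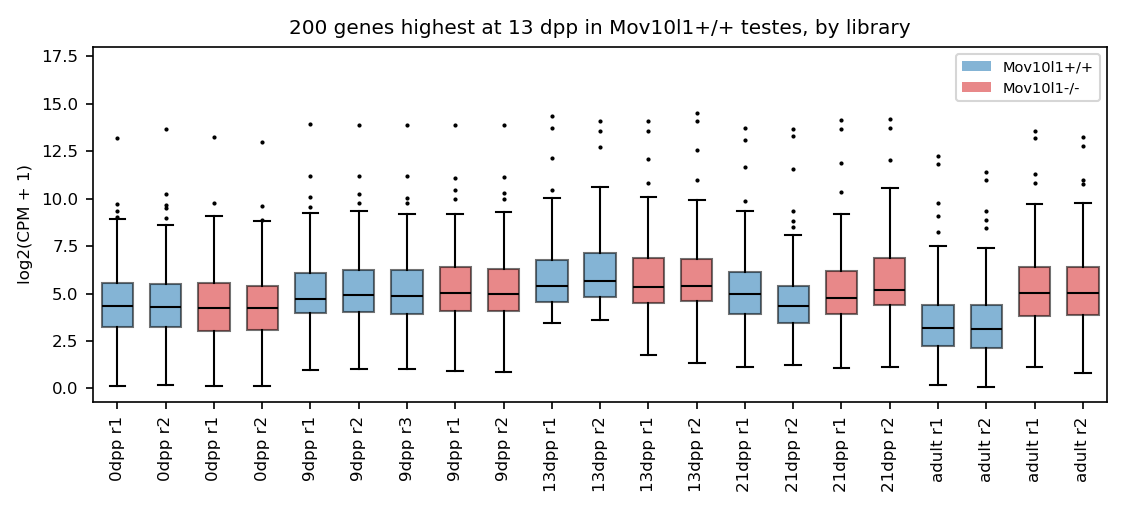
Box plots of log2(CPM + 1) of the 200 members in each of the 21 libraries, ordered by age and coloured by genotype (line, median; box, quartiles; points, values beyond the whiskers). The 2 adult Mov10l1+/+ libraries lie lowest, whereas the adult Mov10l1-/- libraries lie near those of 9 and 21 dpp.

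A gene symbol was at hand for 26 members (13.0%), taken from the study's lists of genes that changed in Mov10l1-/- testes or oocytes. The named members are therefore not a fair sample of the 200, and their differences between genotypes were part of how they came to have a name. No list was tested for enrichment. Of 21 lists of cell type and pathway genes, 1 held a member, Sox8 among the Sertoli cell genes, and between 0 and 70.6% of the genes of a list had an identifier, so the lists leave most members without a class.

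The members with the most RNA had no symbol. ENSMAUG00000002974, ENSMAUG00000006480 and ENSMAUG00000005391 took 3.87 and 3.66% of all counts in the 2 Mov10l1+/+ testes at 13 dpp, where all 200 members took 5.74 and 5.87%. These 3 had fractional counts, which come from reads shared with other loci or other genes, in all 21 libraries, and are uncertain for that reason. ENSMAUG00000005391 was 614, 641 and 596 CPM at 9 dpp and 4468 and 6714 CPM at 13 dpp in Mov10l1+/+ testes, and 590.1 and 637 CPM and 4313 and 6083 CPM in Mov10l1-/- testes. It was among 9 members that rose at least 4-fold between these ages, across which the read type changed, in both genotypes, as did 29 (0.367%) of the 7911 genes. Of these 9 members, 3 had fractional counts in all libraries. Fractional counts in at least 11 libraries were found in 16.5% of members and in 7.57% of the 7911 genes.

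The first question was whether Mov10l1-/- testes, which the choice did not use, also had more RNA of these genes at 13 dpp than at younger ages. For these 200 genes they did for most members against 0 dpp and for fewer against 9 dpp. Read type changed between 13 dpp and these younger ages in both genotypes, and the choice was made across that same change. An effect of read type picked up in Mov10l1+/+ testes would recur here. These calls are therefore no independent support for a rise with age. The same rule on the paired-end Mov10l1+/+ ages alone takes 200 genes, of which 15 are members. Of those 200 genes, 3 were higher and 22 lower than at 9 dpp, beside 6.82% and 8.60% of all genes. That choice did not ask for a level above 9 dpp. With the quasi-likelihood test of edgeR, p-values adjusted by Benjamini-Hochberg over 16346 genes and a call at an adjusted p below 0.01, 187 of 200 members were higher and 2 lower at 13 than at 0 dpp, where 27.6% of all genes were called higher and 27.4% lower. The median log2 fold change of the members was 1.86, against -0.05 over all genes. Against 9 dpp, 81 members were higher and 1 lower, beside 6.82% and 8.60% of all genes, with medians of 0.55 and 0.00. All 81 were also higher than at 0 dpp, as were 5.25% of all genes against both ages. With the 2 libraries of the single 9 dpp animal summed into 1, 22 members (11%) were higher than at 9 dpp and 0 lower, beside 1.56% of all genes higher, and the median stayed at 0.53. Among the members named in the text, Sox8, ENSMAUG00000000721, ENSMAUG00000005391 and ENSMAUG00000006480 kept their call against 9 dpp with those libraries summed, and Col9a1, Col4a3, Anp32a, ND6, Gas7, Trank1, Cald1, ENSMAUG00000000956, ENSMAUG00000012943 and ENSMAUG00000018799 lost it. Without Mov10l1-/- replicate 2 at 13 dpp the count was 48. With libraries scaled by their totals alone, the median of all genes moved to -0.68 against 0 dpp and -0.10 against 9 dpp. Then 138 members were higher and 4 lower than at 0 dpp, beside 10.4% and 40.2% of all genes. Against 9 dpp, 25 members (12.5%) were higher and 1 lower, beside 2.52% and 6.77% of all genes.

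The second question was whether the level in Mov10l1-/- testes was lower again after 13 dpp, as the choice fixed it to be in Mov10l1+/+ testes. With TMM scaling calls went in both directions, and the difference between genotypes was not tested. Against 21 dpp, 21 members were higher and 19 lower at 13 dpp (10.5 and 9.50%), close to the 10.1% of all genes called in each direction, and the median log2 fold change was -0.02. Against adults, 70 were higher and 40 lower, beside 21.8% and 22.9% of all genes, with a median of 0.25. Without Mov10l1+/+ replicate 1 at 13 dpp the rule takes 200 genes, of which 55 are members. Of those 200 genes, 44 were higher and 49 lower than in adults, beside the same 21.8% and 22.9% of all genes. Scaling by totals changed the split, to 28 higher and 0 lower against 21 dpp and 73 higher and 17 lower against adults, while it moved the median of all genes to 0.34 and 0.21. Of the 81 members higher than at 9 dpp, 10 were also higher than at 21 dpp, 7 were lower and 64 were not called. Only 9 members (4.5%) were higher at 13 dpp than at each of the 4 other ages, beside 0.306% of all genes, and 1 was with the 9 dpp libraries summed. Trank1 and Cald1 were the 2 of the 9 with a symbol.

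**Figure D2:**
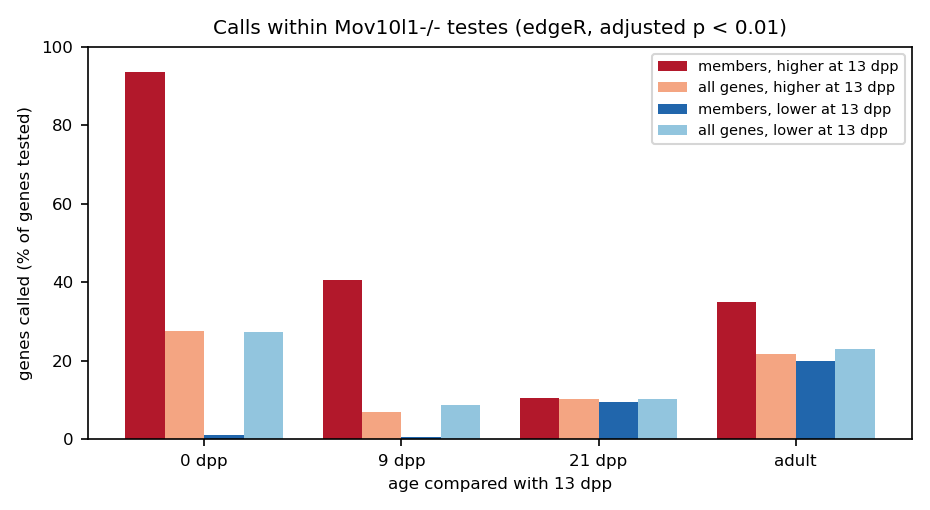
Percentage of the 200 members and of all 16346 tested genes called higher or lower at 13 dpp than at each other age within Mov10l1-/- testes (edgeR, adjusted p below 0.01; 2 libraries per age, those of 9 dpp from 1 animal). Members called higher reach 93.5% against 0 dpp and 40.5% against 9 dpp, and 10.5% against 21 dpp, and the share against 9 dpp is 11% with the libraries of that animal summed. Read type differs between 13 dpp and the ages of 0 and 9 dpp.

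By mean CPM, with no test, 102 members (51.0%) were highest at 13 dpp in Mov10l1-/- testes, compared with 9.29% of the 14650 genes whose mean reached 1 CPM at some age and 11.4% of the 7911. Another 51 members were highest in adults, 18 at 9 dpp, 17 at 21 dpp and 12 at 0 dpp. Both Mov10l1-/- libraries at 13 dpp lay above all 8 other Mov10l1-/- libraries for 58 members (29.0%), beside 3.97% of the 14650 genes and 4.92% of the 7911. With CPM scaled by TMM factors, 74 members were highest at 13 dpp, beside 11.7% of the 14650 genes, and 65 at 21 dpp.

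**Figure D3:**
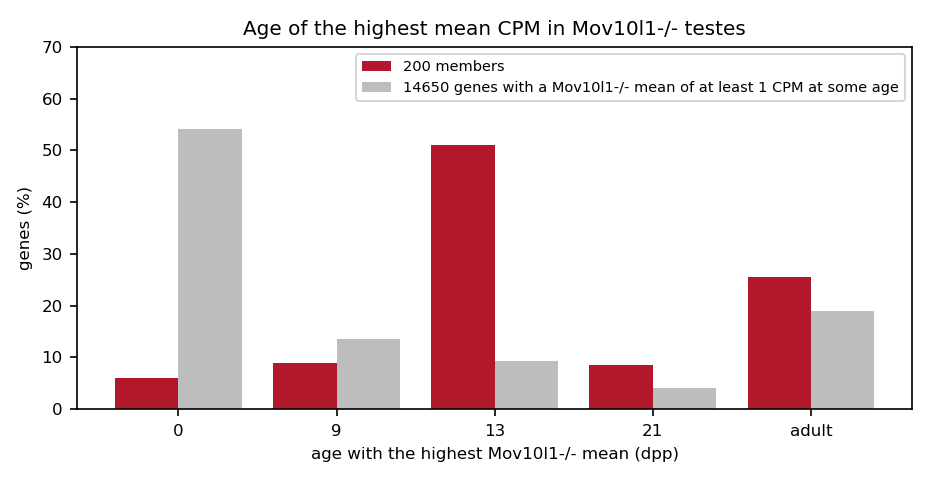
Percentage of the 200 members and of 14650 genes by the age at which the mean CPM of the 2 Mov10l1-/- libraries was highest. The members are most often highest at 13 dpp (51.0%) and then in adults (25.5%), while 54.1% of all genes are highest at 0 dpp.

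Gjc3 (ENSMAUG00000014388), a connexin of gap junctions, was 6.41, 6.54 and 7.98 CPM at 9 dpp, 15.8 and 17.7 CPM at 13 dpp and 7.48 and 5.08 CPM at 21 dpp in Mov10l1+/+ testes. In Mov10l1-/- testes it was 9.42 and 9.90 CPM, 13.3 and 17 CPM and 13 and 16.7 CPM, so that the 13 and 21 dpp libraries overlapped. Its log2 fold change at 13 dpp was 3.89 ± 0.23 (SE) against 0 dpp (edgeR adjusted p = 2.2e-07) and 0.77 ± 0.19 against 9 dpp, which was not called (edgeR adjusted p = 0.013). Col9a1 (ENSMAUG00000017024), a chain of the fibril-associated collagen IX, was 159.7 and 314 CPM in Mov10l1+/+ testes at 13 dpp, against 61.4 and 54.9 CPM at 21 dpp and 3.60 and 4.07 CPM in adults. In Mov10l1-/- testes it was 111 and 119.8 CPM at 9 dpp, 172 and 242 CPM at 13 dpp, 199 and 299 CPM at 21 dpp and 29 and 25 CPM in adults. It rose from 9 to 13 dpp by 0.95 ± 0.20 on the log2 scale (edgeR adjusted p = 0.0052), a call lost with the 9 dpp libraries summed. Its difference from 21 dpp was -0.61 ± 0.20 (edgeR adjusted p = 0.036, not called). Col4a3 (ENSMAUG00000020636), a basement membrane collagen IV chain, was 65.5 and 144 CPM in Mov10l1+/+ and 71 and 106 CPM in Mov10l1-/- testes at 13 dpp, after 20.1 and 19.8 CPM in the latter at 9 dpp. Its rise of 2.27 ± 0.35 on the log2 scale was called (edgeR adjusted p = 0.00098), and with the 9 dpp libraries summed it was not (edgeR adjusted p = 0.0116). Adam9, a membrane metalloprotease, was 229 and 242 CPM in Mov10l1+/+ and 269 and 310.4 CPM in Mov10l1-/- testes at 13 dpp. It was higher still at 21 dpp in Mov10l1-/- testes, at 306 and 430.2 CPM (log2 fold change of 13 over 21 dpp -0.70 ± 0.13, edgeR adjusted p = 0.0024).

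Sox8 (ENSMAUG00000013294), a transcription factor of Sertoli cells, was the only member in a cell type list. It was 20.6 and 24 CPM at 0 dpp, 37.6, 46.6 and 41.4 CPM at 9 dpp, 92.3 and 88.7 CPM at 13 dpp, 73.7 and 43.9 CPM at 21 dpp and 13.1 and 14.5 CPM in adults in Mov10l1+/+ testes. In Mov10l1-/- testes it was 12.4 and 11.8 CPM at 0 dpp, 53.5 and 51.2 CPM at 9 dpp, 134 and 146 CPM at 13 dpp, 90.4 and 172 CPM at 21 dpp and 101 and 103 CPM in adults. The Mov10l1-/- libraries lay above all Mov10l1+/+ libraries of their age at 9, 13 and 21 dpp and in adults, and below them at 0 dpp. Within Mov10l1-/- testes Sox8 rose from 9 to 13 dpp by 1.53 ± 0.15 on the log2 scale (edgeR adjusted p = 5.7e-05), also with the 9 dpp libraries summed (edgeR adjusted p = 0.00143). Against 21 dpp and adults its log2 fold changes were -0.22 ± 0.15 (edgeR adjusted p = 0.26) and 0.25 ± 0.15 (edgeR adjusted p = 0.16). Of the 7 Sertoli cell genes tested, 6 were higher at 13 than at 0 dpp and 3 than at 9 dpp, with 0 lower. Against 21 dpp 1 was higher and 2 were lower, and against adults 1 was higher and 3 were lower. Of the 12 germ cell genes tested, 11 were lower than at 0 dpp and 5 than at 9 dpp, with 0 higher. Against 21 dpp 1 was higher and 0 lower, and against adults 0 were higher and 5 lower. Of all genes, 27.6% were higher and 27.4% lower than at 0 dpp, and 6.82% and 8.60% than at 9 dpp. The shares were 10.1% and 10.1% against 21 dpp and 21.8% and 22.9% against adults. As said above, the listed genes were partly picked for a difference between genotypes.

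Cald1 (ENSMAUG00000017213), caldesmon, which binds actin and is typical of smooth muscle and myoid cells, was 75.7 and 152 CPM in Mov10l1+/+ and 73.2 and 76.8 CPM in Mov10l1-/- testes at 13 dpp, so that the higher Mov10l1+/+ library lay apart from the other 3. In Mov10l1-/- testes it was 45.8 and 47.5 CPM at 9 dpp and 17.9 and 29.1 CPM at 21 dpp, and 13 dpp was higher than 21 dpp by 1.34 ± 0.19 on the log2 scale (edgeR adjusted p = 0.00041). Trank1 was 1383 and 1281 CPM at 9 dpp, 1822 and 2054 CPM at 13 dpp and 594 and 1022 CPM at 21 dpp in Mov10l1-/- testes. Its log2 fold change against 9 dpp was 0.64 ± 0.15, called just under the threshold (edgeR adjusted p = 0.00998). This call was lost with the 9 dpp libraries of 1 animal summed (log2 fold change 0.63). Against 21 dpp its log2 fold change was 0.93 ± 0.15 (edgeR adjusted p = 0.0011). Gas7, which binds actin in growth-arrested cells, was 108 and 116 CPM in Mov10l1+/+ and 127 and 110.4 CPM in Mov10l1-/- testes at 13 dpp. Tmsb10, an actin monomer binding thymosin, was 1094 and 973 CPM at 13 dpp and 1330.0 and 1489 CPM at 21 dpp in Mov10l1-/- testes, and was called lower at 13 dpp (log2 fold change -0.84 ± 0.16, edgeR adjusted p = 0.0026).

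**Figure D4:**
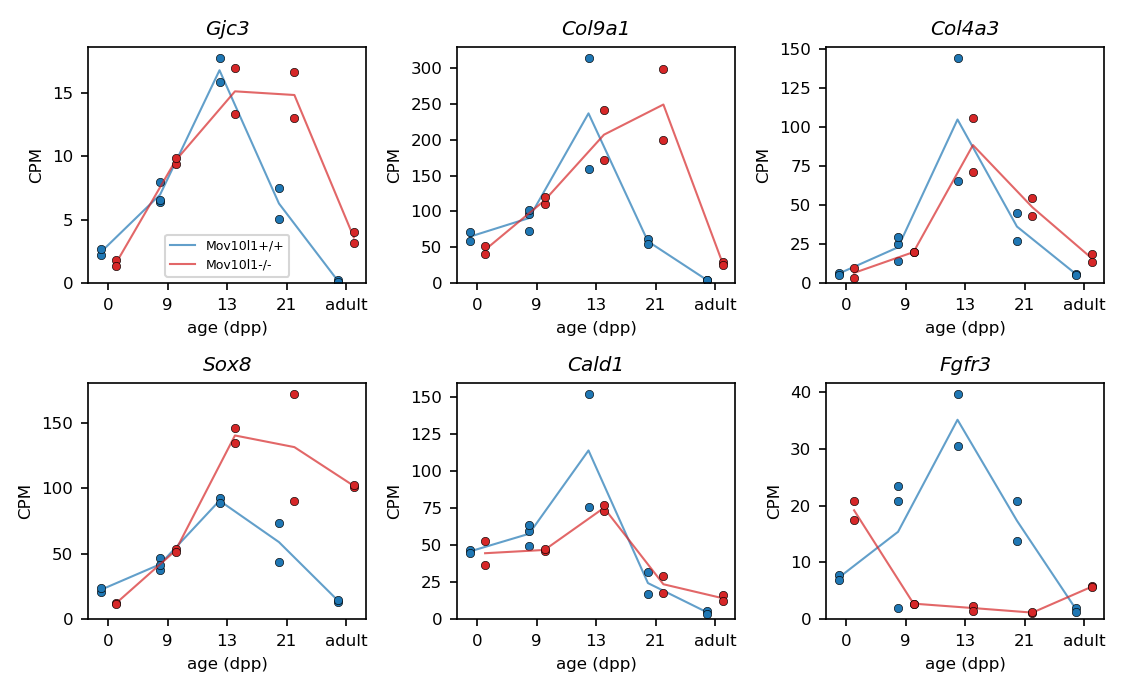
CPM of 6 named members by age, with each library as a point and the group mean as a line (Mov10l1+/+ blue, Mov10l1-/- red; linear axes from 0). Gjc3, Col9a1 and Sox8 stay high at 21 dpp in Mov10l1-/- testes, and Cald1 falls in both genotypes. Fgfr3 is low in Mov10l1-/- testes from 9 dpp on. It is also low in the third Mov10l1+/+ library at 9 dpp (1.87 CPM), and in adults it is lower in Mov10l1+/+ than in Mov10l1-/- testes.

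Fgfr3 (ENSMAUG00000012735), a receptor of fibroblast growth factors found on undifferentiated spermatogonia, had the lowest log2 ratio of Mov10l1-/- over Mov10l1+/+ means at 13 dpp among the 200 members, -3.62. It was 7.71 and 6.88 CPM at 0 dpp, 20.9, 23.5 and 1.87 CPM at 9 dpp, 30.6 and 39.7 CPM at 13 dpp, 20.9 and 13.8 CPM at 21 dpp and 2.03 and 1.25 CPM in adults in Mov10l1+/+ testes. In Mov10l1-/- testes it was 17.6 and 20.8 CPM at 0 dpp, 2.74 and 2.71 CPM at 9 dpp, 2.38 and 1.51 CPM at 13 dpp, 1.10 and 1.19 CPM at 21 dpp and 5.79 and 5.65 CPM in adults. The third Mov10l1+/+ library at 9 dpp shares the title code read as a litter with the Mov10l1-/- animal of that age. It had 1.87 CPM, close to the 2.74 and 2.71 CPM of that animal. Within Mov10l1-/- testes Fgfr3 was lower at 13 than at 0 dpp (log2 fold change -2.74 ± 0.22, edgeR adjusted p = 1.8e-06), as was 1 other member, ENSMAUG00000010583. It was singled out for its low level at 13 dpp in Mov10l1-/- testes, so these values are no independent support for that level. ENSMAUG00000000956, chosen after its values were seen, was the 1 member called lower at 13 than at 9 dpp, with 107 and 111 CPM at 9 dpp and 60.3 and 41.4 CPM at 13 dpp (log2 fold change -1.02 ± 0.18, edgeR adjusted p = 0.0020), and this call was lost with the 9 dpp libraries summed (edgeR adjusted p = 0.0135). Its Mov10l1+/+ libraries at 13 dpp had 108 and 166 CPM.

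Slc20a1, a phosphate transporter, was 125 and 139 CPM in Mov10l1+/+ and 110.1 and 146 CPM in Mov10l1-/- testes at 13 dpp. Slc22a20, annotated as a pseudogene of the organic anion transporter family, was 35.9 and 33 and 32.8 and 53.7 CPM. Neither was called against 9 dpp. Anp32a, a histone-binding inhibitor of protein phosphatases, was 145 and 184 CPM in Mov10l1+/+ and 182 and 139 CPM in Mov10l1-/- testes at 13 dpp. In the latter it rose from 9 dpp by 0.69 ± 0.14 on the log2 scale (edgeR adjusted p = 0.0038), a call lost with the 9 dpp libraries summed. Kmt5a, which methylates histone H4, was 124 and 124 CPM at 9 dpp and 128 and 109.6 CPM at 13 dpp in Mov10l1-/- testes, with a log2 fold change of 0.03 ± 0.11. Cdk2ap1, a partner of the cell cycle kinase CDK2, and Mrpl21, a protein of the mitochondrial ribosome, likewise had log2 fold changes against 9 dpp of 0.03 ± 0.16 and 0.09 ± 0.16 and were not called. ND6, a mitochondrially encoded subunit of respiratory complex I, was 174 and 147 CPM in Mov10l1+/+ testes at 13 dpp but 339.6 and 78 CPM in Mov10l1-/- testes, so that the Mov10l1-/- libraries lay on either side of both Mov10l1+/+ libraries. It was called against 9 dpp (log2 fold change 2.50 ± 0.47, edgeR adjusted p = 0.0032), which was lost with the 9 dpp libraries summed. Against adults ND6 was not called (0.40 ± 0.45), and the sign turned without Mov10l1-/- replicate 1 at 13 dpp.

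The 2 members with the highest ratio had no symbol. ENSMAUG00000000721 was 16.2, 19.9 and 20.0 CPM at 9 dpp, 55.3 and 48.3 CPM at 13 dpp and 8.68 and 6.38 CPM in adult Mov10l1+/+ testes, and 26.3 and 26.1, 62 and 63.3 and 57 and 62.1 CPM in Mov10l1-/- testes, where adults and 13 dpp did not differ past the threshold (log2 fold change -0.14 ± 0.13). It rose from 9 to 13 dpp in Mov10l1-/- testes by 1.36 ± 0.13 on the log2 scale (edgeR adjusted p = 4.85e-05). ENSMAUG00000018799 was 43 and 38.4, 87.1 and 77.5 and 6.58 and 9.68 CPM at the same ages in Mov10l1-/- testes and 68.8 and 81.7 CPM in Mov10l1+/+ testes at 13 dpp, and was lower in Mov10l1-/- adults than at 13 dpp (log2 fold change of 13 dpp over adults 3.12 ± 0.18, edgeR adjusted p = 1.7e-07).

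Mov10l1-/- and Mov10l1+/+ testes are set side by side here without a test, since the Mov10l1+/+ values chose the members. Members had to be high in Mov10l1+/+ testes at 13 dpp and lower at every other age, which was not asked of the 7911 genes. By itself this tends to lower the members' ratio at 13 dpp and to raise it at the other ages. An excess over the 7911 genes at 21 dpp or in adults is therefore no independent sign of a difference between genotypes. At 13 dpp the median log2 ratio of Mov10l1-/- over Mov10l1+/+ means (1 CPM added to both) was -0.16, against -0.03 over the 7911 genes, and 161 members lay within 0.5 of 0. The median was -0.02 in the 1 litter and -0.33 in the other, and it was 0.05 with TMM-scaled CPM, beside 0.16 over the 7911 genes. Both Mov10l1-/- libraries lay below both Mov10l1+/+ libraries for 67 members and above them for 29, where 27.7% and 17.7% of the 7911 genes did. At the other ages the median was -0.14 at 0 dpp, 0.10 at 9 dpp, 0.43 at 21 dpp and 1.82 in adults, against -0.01, 0.01, -0.11 and 0.60 over the 7911 genes. The mean was higher in Mov10l1-/- testes for 148 members at 21 dpp and 188 in adults (74.0 and 94.0%), beside 45.5 and 63.1% of the 7911 genes. It was higher by more than 1 on this log2 scale for 46 and 153 members (23.0 and 76.5%), beside 12.2 and 40.7% of the 7911 genes.

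**Figure D5:**
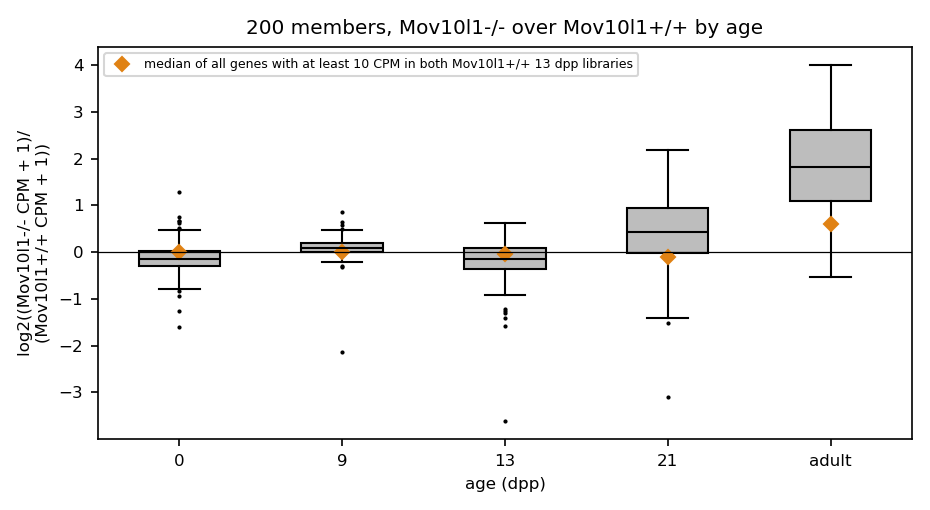
Box plots of the log2 ratio of Mov10l1-/- over Mov10l1+/+ mean CPM (1 added to both) for the 200 members at each age, with the median of the 7911 genes as diamonds. The members' median is near 0 up to 13 dpp and reaches 1.82 in adults, where that of the 7911 genes is 0.60. Members were chosen to be lower in Mov10l1+/+ testes at ages other than 13 dpp, which by itself tends to raise their ratio there.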

How the data were processed

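RNA was measured in whole testes after depletion of ribosomal RNA, with a directional library kit. Per the labels and the study's methods, the authors mapped reads with STAR 2.7.3a to MesAur1.0 and counted them with featureCounts 2.0.0 on Ensembl 99 genes, with Piwil3 and Tex101 taken from RefSeq. The deposited table holds estimated counts per gene, some of them fractional, for 21 libraries. CPM was computed from column totals. Counts were rounded and the 10 Mov10l1-/- libraries fitted with 1 coefficient per age by edgeR 4.0.16 in R 4.3.3 (TMM factors, quasi-likelihood test, Benjamini-Hochberg adjustment, calls at an adjusted p below 0.01). DESeq2 1.42.0 was an alternative. The fit was tested on simulated data.

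The members, gene lists and tests were chosen with earlier results of these data known. The named genes were the 10 symbols with the highest ratio, members of a list, the 5 lowest and 5 highest symbols by Mov10l1-/- over Mov10l1+/+ at 13 dpp, those called against all ages, the last 2 members taken and the 2 with the highest ratio. Tmsb10, the 3 most abundant members, ENSMAUG00000010583 and ENSMAUG00000000956 were named after their values were seen. Symbols came from the study's supplementary gene lists. Every value column was matched to a sample. Replicates are separate animals except at 9 dpp in Mov10l1-/- testes, where 2 libraries of 1 animal make p-values too small. Precision is limited by 2 libraries per group.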

Additional observations from a re-analysis of the deposited data

Results flagged for a closer look

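Fgfr3 lay in opposite order between 9 and 13 dpp in the 2 genotypes. The log2 ratio of its mean CPM at 13 over 9 dpp (1 CPM added to both) was -0.34 in Mov10l1-/- testes, where both 13 dpp libraries lay below both 9 dpp libraries, which are of 1 animal, and the change was not called (log2 fold change -0.45 ± 0.23, edgeR adjusted p = 0.155). Both Mov10l1+/+ libraries at 13 dpp lay above all 3 at 9 dpp, as the choice of members requires. The same order of Mov10l1-/- libraries held for 14 of the 200 members (7%), Fgfr3 among them, and for 44.6% of the 7911 genes with at least 10 CPM in both Mov10l1+/+ libraries at 13 dpp. The difference between genotypes was not tested.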

How the results depend on the processing

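The count of members higher at 13 than at 0 dpp in Mov10l1-/- testes ranged from 180 to 189 when 1 library was left out. Against 9 dpp it ranged from 21 to 83 (23 and 21 without the first and second library of the 9 dpp animal, 48 without replicate 2 at 13 dpp) and was 25 with library totals, 22 with the 9 dpp libraries summed and 32 with only the 2 ages fitted. Against 21 dpp it ranged from 9 (without replicate 1 at 21 dpp) to 24 and was 38 by DESeq2, 10 with only the 2 ages fitted and 45 at an adjusted p below 0.05. Against adults it ranged from 55 to 76. The count higher than all 4 ages ranged from 1 to 8 and was 17 by DESeq2, 5 with library totals, 1 with the 9 dpp libraries summed and 25 at an adjusted p below 0.05. By DESeq2, 13.7% of all genes were higher and 12.9% lower against 21 dpp, beside 19.0% and 12.5% of members. Shares of all genes are not given for the fits of only the 2 ages or for an adjusted p below 0.05. They are also not given for all 4 ages together under these settings. A larger count there is therefore no sign by itself of a larger difference from all genes. The cause of these changes in count was not tested.

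The membership itself depended on single Mov10l1+/+ libraries. Between 55 and 198 members were kept when 1 was left out (55 and 69 without replicates 1 and 2 at 13 dpp, 92 without replicate 1 at 21 dpp), 116 with TMM-scaled CPM and 15 with the paired-end ages alone. The next 2 gene sets were chosen after seeing the data. Of the 200 genes taken from the paired-end ages, 95, 3, 117 and 168 were higher in Mov10l1-/- testes against 0, 9 and 21 dpp and adults. In the same order 40, 22, 1 and 5 were lower. Of all genes, 27.6, 6.82, 10.1 and 21.8% were higher and 27.4, 8.60, 10.1 and 22.9% lower. The 200 taken without Mov10l1+/+ replicate 1 at 13 dpp gave 50 higher and 17 lower against 9 dpp. Against adults they gave 44 higher and 49 lower. The members highest at 13 dpp by Mov10l1-/- mean numbered 86 to 109 when 1 library was left out. The median log2 ratio of Mov10l1-/- over Mov10l1+/+ at 13 dpp was -0.24 to -0.01 when 1 library was left out and turned to 0.047 with TMM-scaled CPM, and at 21 dpp it was 0.88 with TMM-scaled CPM, where that of the 7911 genes moved from -0.11 to 0.33. ND6 against adults turned to -0.90 (edgeR adjusted p = 0.00429) without replicate 1 at 13 dpp and was 1.11 without replicate 2.

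With the replicate number as a block the counts were 186, 75, 21 and 70. The pairing was not in the design: correlations of same-numbered deviations ran from -0.08 to 0.06, and the block changed no count by more than 1.5 times. For single named genes 1298 values kept their side of the threshold, 84 lost a call and 17 gained one. Depth limits the lowest members, with 40 counts in the shallowest library.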
